A study of Rattus norvegicus with 6 samples.

Results

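The genes described here encode the eukaryotic translation initiation factors (symbols starting with Eif) and elongation factors (symbols starting with Eef), with the proteins that bind or modify them. They were taken by symbol from the platform annotation, which named 56 probe sets of 54 genes, and 1 further probe set, that of Eif1, was added because the list of CTGF responsive genes of the study contains it. This gave 57 probe sets and 55 genes of 14325 genes with a single symbol. For a gene with more than 1 probe set the one with the highest mean of the 6 arrays was used. The array data came from whole ovaries of newborn (0-day-old) female Sprague-Dawley rats in organ culture for 24 h. There were 3 control pools with no treatment and 3 pools that received human connective tissue growth factor (CTGF, also called CCN2) at 500 ng/ml. Each pool held 2 to 3 ovaries of different pups of a litter. The replicate number in the labels was taken as the organ culture batch, which gives 1 control and 1 CTGF pool for each of 3 batches. The question was whether CTGF, a matricellular growth factor, alters the ovarian transcriptome when oocyte nests begin to break down into primordial follicles.

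Initiation starts when eIF2 brings the initiator tRNA to the small ribosomal subunit, while eIF3, eIF1 and eIF1A hold that subunit open for scanning. eIF4F recruits the mRNA through its cap, eIF5 and eIF5B complete the joining of the subunits, and eEF1 and eEF2 then carry out each cycle of elongation. Cells adjust these steps mainly through phosphorylation of eIF2, of the cap inhibitors (4E-BPs) and of eEF2, which an array of transcripts does not measure. In oocytes many mRNAs are stored and translated later, and several cap-binding partners serve that storage.

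Most of these transcripts are found in every cell. The 54 genes named by the annotation had mean signals (un-logged) between 26.1 for Eif4e3 and 11788 for Eef1a1. The background was set by 41 genes typical of the eye, gut, lung, kidney, pituitary or pancreas (silent tissue genes), of which 32 had a named probe set. Their silence in these ovaries was assumed, not tested. Of the 54 factors, 53 had a signal above the 95th percentile of these silent genes (34.1), as did 61.2% of all 27342 probe sets. Eif4e3, a cap-binding protein of the eIF4E family, was the exception. Signals of different probe sets are not measures of relative abundance, so genes were compared only with themselves. Eif4g1, Eif4a3, Eif2ak2, Eif3f, Eif3g, Eif3m, Eif4e1b, Eif4ebp3, Eif5a2 and the Y-linked Eif2s3y had no probe set under their own symbol and were not analysed here.

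Many transcripts of the translation machinery begin with a C followed by a run of pyrimidines, the terminal oligopyrimidine (TOP) start through which mTOR controls their translation. RefSeq start sites on the GRCr8 assembly were found for 49 of the 55 genes. In 8 of them (16.3%), a C within 5 bases of the annotated start was followed by at least 5 bases that were C or T, against 9.26% of 18999 protein-coding genes. The sequences below show 10 bases before and 20 bases from the annotated start, 5′ to 3′ on the strand of the gene, with the pyrimidine run in capitals. Eef1a1, Eef1b2, Eif2a and Eif2s3 are shown for their runs. Eif1 and Eef1e1 are shown because they had the highest and lowest mean difference between CTGF and control pools among the 55 genes. The capitals begin at the first such C within the 5 bases. In Eef1e1 1 further c precedes them, so its whole run begins outside that limit and only the marked stretch meets the rule.
Eef1a1, chr8:88225050-88225079, minus strand: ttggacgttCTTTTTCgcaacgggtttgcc
Eef1b2, chr9:72074081-72074110, plus strand: ggccggtcccggCCCTTTTTCTCCCTCagc
Eif2a, chr2:144911350-144911379, plus strand: gcatgggtttCTCTTTCCgggacaagatgg
Eif2s3, chrX:62933680-62933709, minus strand: cagccgagcattttCCTTTTCTCTCTgagc
Eif1, chr10:85747127-85747156, plus strand: gcgccgCCCCTCCgccccagtcactgagcc
Eef1e1, chr17:26354237-26354266, plus strand: tccgcCCCCCTaggagctgggccagaagat
Without Eif1, the 7 genes with such a run had log2 differences (CTGF minus control) from -0.24 to 0.0033 with a median of -0.023, and the 41 without one had differences from -0.13 to 0.11 with a median of -0.0067. The -0.24 is that of Eef1e1, whose marked run begins 5 bases before the annotated start. This is a description of start sites in the annotation, which does not establish which transcripts have a TOP start. Translation itself was not measured.

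Before the comparison, the labelled tissue was checked with marker genes. Germ cell markers were above the 95th percentile of the silent genes in 6 of 6 measured genes (Ddx4, Dazl, Sycp3, Kit, Gdf9, Zp3), markers of the pregranulosa cells in 5 of 6, with Amh below it, and stromal markers in 5 of 5. Markers of mesonephros and epithelium were above it in 3 of 4 genes, and those of muscle in 2 of 4 (Acta1 and Ckm). A signal above this level therefore does not by itself show that a tissue is present. The summed signal of the germ cell markers ranged from 4337 to 4808 in control and from 4563 to 5040 in CTGF pools. That of the stromal markers ranged from 3429 to 4274 in control and from 3066 to 3810 in CTGF pools, and that of the pregranulosa markers from 2376 to 2606 and from 2275 to 2491. The sum of the endothelial markers, of which 2 of 4 were measured (Cdh5 and Tek, both above the silent percentile), ranged from 196.6 to 207.4 in control and from 184.2 to 194.6 in CTGF pools, without overlap. Their median difference was -0.11, -0.08 and -0.14 in the 3 batches, although each of these genes had both signs among its pairs. The part of endothelial cells in the differences of the factors was not tested. For leukocyte markers, 4 of 5 of them above the silent percentile, the ranges were 297.9 to 313.6 and 306.1 to 322.8, and for erythroid markers, with 1 of 2 above it (Hbb), they were 736.7 to 909.4 and 715.4 to 883.4. In whole ovaries fewer cells of a type and less RNA per cell cannot be told apart. For each probe set, averaging the control and CTGF pool of a batch gave the same value in batches 1, 2 and 3 (largest range 0.005). Differences between batches had thus been removed, and what remains in each gene is the difference between the 2 pools of each batch. In such values a gene with 1 direction in all 3 pairs has groups that do not overlap, so the absence of overlap repeats the direction of the pairs.

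CTGF and control pools differed little in these transcripts. The median log2 difference of the 54 genes was -0.012, beside -0.0033 for all probe sets. In 46 of the 54 genes (85.2%) the mean difference was below 0.1 on the log2 scale in either direction, as in 78.4% of all probe sets. With limma, none of the 54 genes passed an adjusted p of 0.05 (lowest adjusted p = 0.994), and 0% of all probe sets did. At an unadjusted p under 0.05 limma called 1 of the 54, Eef1e1 (lower with CTGF), against 3.35% of all probe sets. This share of 1.85% was no higher than the background, which was 1.45% for higher and 1.89% for lower probe sets. At the criteria of the study (a ratio of un-logged means over 1.2 or under 0.83, a difference of over 10 and an unadjusted p under 0.05) 0 of the 54 were called, and 0.435% of all probe sets were.

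**Figure D1:**
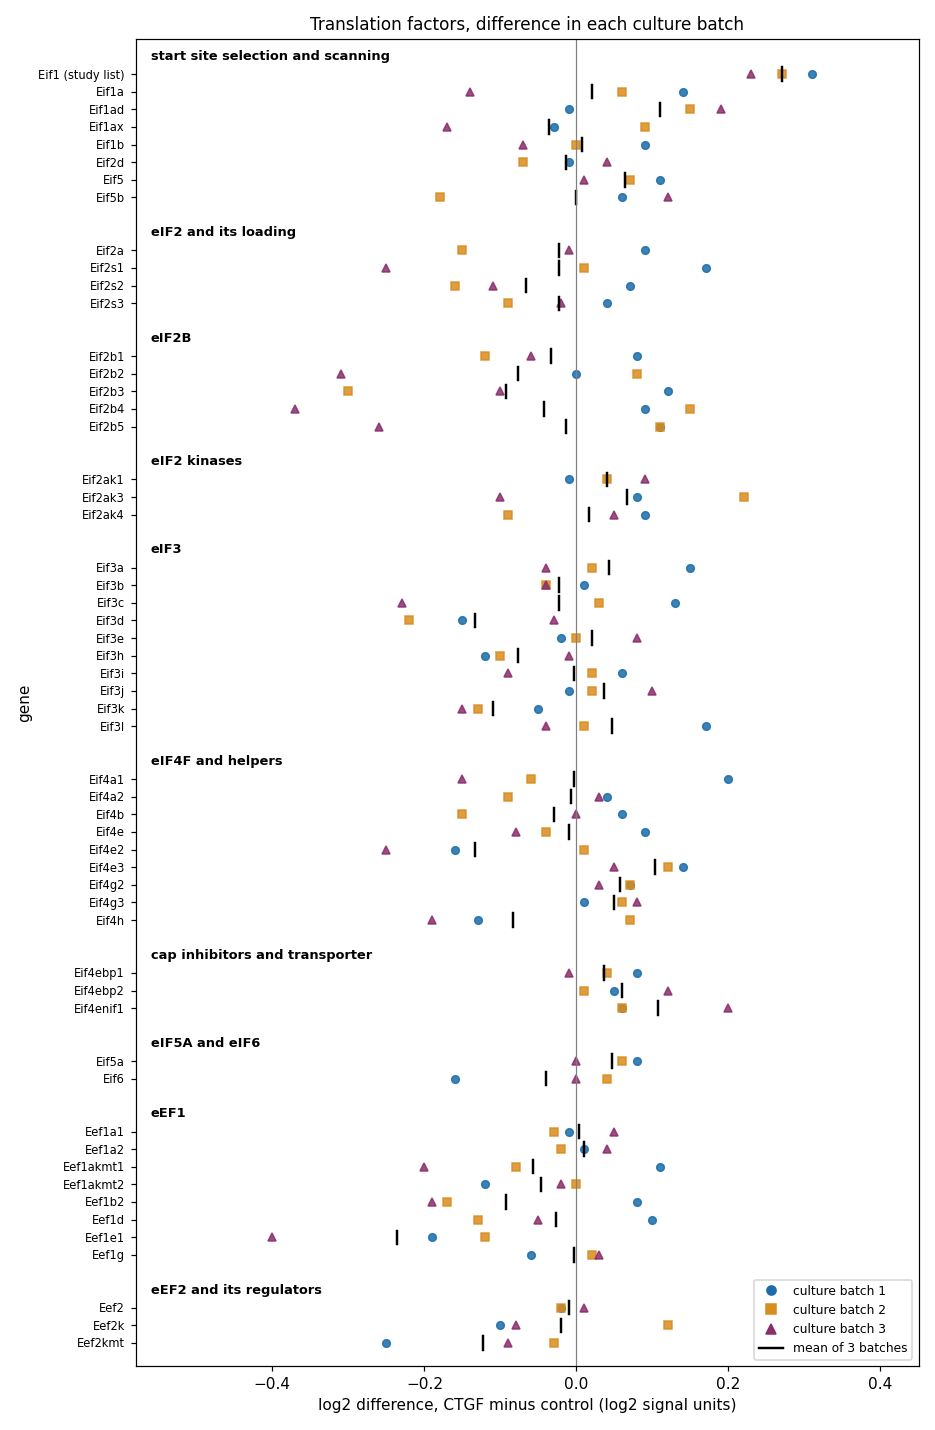
Log2 difference between the CTGF and the control pool (horizontal axis, log2 signal units) of each of 55 genes (vertical axis, grouped by role), drawn as a circle for batch 1, a square for batch 2, a triangle for batch 3 and a black bar for their mean. Eif1 lies between 0.23 and 0.31 in all batches and Eef1e1 between -0.40 and -0.12, while 43 of the 55 genes have no common direction in the 3 batches.

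How large a change the 3 pairs leave possible was read from the 95% intervals of the differences. For 41 of the 54 genes (75.9%) the interval lay within a 1.2-fold change in either direction (0.26 on the log2 scale), and for 61.7% of all probe sets it did. Eef1a1, Eef2, Eif4e, Eif4a1, Eif5 and Eif5a were among these 41. The count was 25 with the 2-way test of the methods, which does not borrow spread from other probe sets, and it was 15 to 23 when any 1 of the batches was left out. The intervals are not adjusted for the number of genes. The remaining 13 intervals reached past 1.2-fold on 1 side, the widest being those of Eif2b4 (-0.32 to 0.23) and Eif2b3 (-0.32 to 0.13), both subunits of eIF2B.

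**Figure D2:**
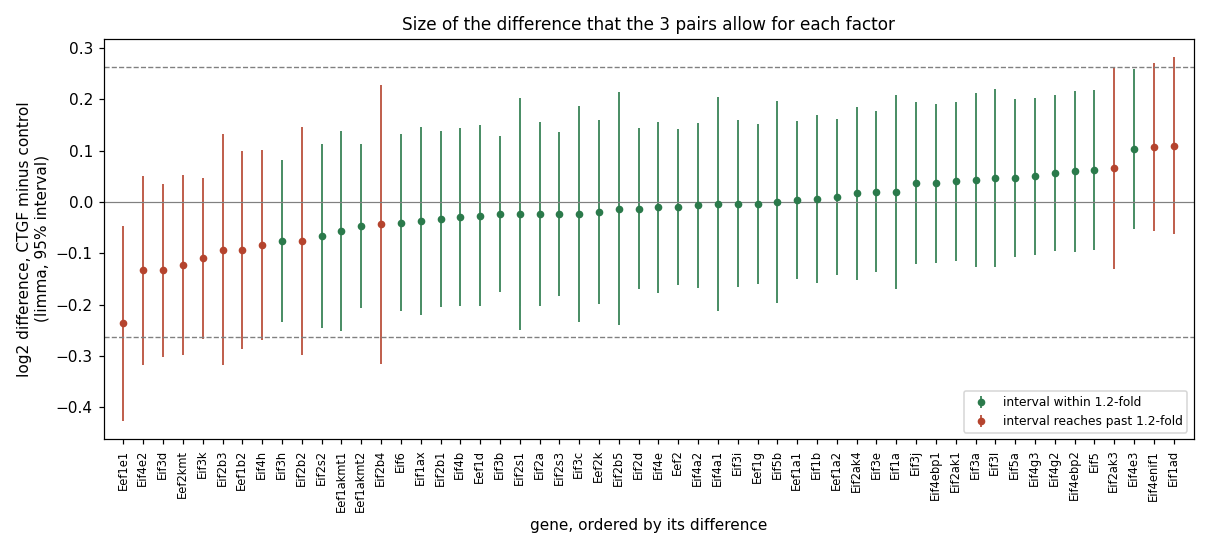
Log2 difference, CTGF minus control, with its 95% interval from limma (vertical axis) for the 54 genes named by the annotation, ordered by difference (horizontal axis), with 1.2-fold in either direction marked by dashed lines. The intervals of 41 genes (green) lie between the dashed lines, those of 13 (red) cross one, and that of Eef1e1 alone does not contain 0.

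Eif1 encodes the factor that, with eIF1A, keeps the scanning ribosome from starting at a wrong codon. Its probe set was chosen for its difference in these samples, so its values are a description and carry no test. The control pools of batches 1, 2 and 3 had log2 signals of 6.0, 6.02 and 6.04, and the CTGF pools 6.31, 6.29 and 6.27. The difference was 0.31, 0.27 and 0.23 in the 3 batches, with a mean of 0.27 ± 0.04 (SD of the 3 differences). Un-logged signals were 64.9 ± 0.900 (SD, n = 3) in control and 78.3 ± 1.08 (SD, n = 3) in CTGF pools, a ratio of 1.21, which lies just past the limit of 1.2. With batch means equalized, these SDs reflect the spread of the pair differences, not that between independent pools. The paralog Eif1b was chosen by its symbol and had control signals of 9.51, 9.55 and 9.59 and CTGF signals of 9.60, 9.55 and 9.52 on the log2 scale. The Eif1b groups overlapped, and the difference of 0.0067 had a 95% interval from -0.16 to 0.17. None of the other genes of start site selection and scanning had an interval that left out 0. Eif5, which makes eIF2 hydrolyse its GTP at the start codon, was higher with CTGF in all 3 pairs but by little, at control signals of 11.17, 11.19 and 11.22 and CTGF signals of 11.28, 11.26 and 11.23. Its mean difference was 0.063 (standard error 0.064). Eif1ad, an eIF1A domain protein, had the highest mean of the 54 genes at 0.11 (standard error 0.071), from differences of -0.01, 0.15 and 0.19. Eif1a and Eif1ax, 2 genes for eIF1A, had differences of 0.020 and -0.037, each with both signs among its pairs, and so did Eif5b, the GTPase of subunit joining, at 0.06, -0.18 and 0.12.

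Eef1e1 had the lowest mean difference of the 54 genes. It is named as an elongation factor, but its protein (AIMP3, p18) is known as a scaffold of the complex of tRNA synthetases. Its control pools had log2 signals of 9.43, 9.39 and 9.53 and its CTGF pools 9.24, 9.27 and 9.13. It was lower in all 3 pairs. The differences were -0.19, -0.12 and -0.40, with a mean of -0.24 (standard error 0.078, limma unadjusted p = 0.0224, adjusted p = 0.994). Signals were 700.0 ± 35.3 (SD, n = 3) in control and 594.1 ± 30.0 (SD, n = 3) in CTGF pools, a ratio of 0.849. Here too the SDs reflect the spread of the pair differences, as batch means had been equalized. The unadjusted p was 0.107 with the 2-way test of the methods, and in limma it was 0.0964 without batch 1 and 0.0756 without batch 3, where the mean was -0.16. The 19 measured cytoplasmic tRNA synthetases, partners or relatives of that complex, had a median of -0.030. In limma 0 of these 19 had an unadjusted p under 0.05, beside 3.35% of all probe sets. By batch their median was 0.08, 0.01 and -0.17. It was lowest in batch 3, as was Eef1e1, but highest in batch 1, where Eef1e1 was at -0.19.

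**Figure D3:**
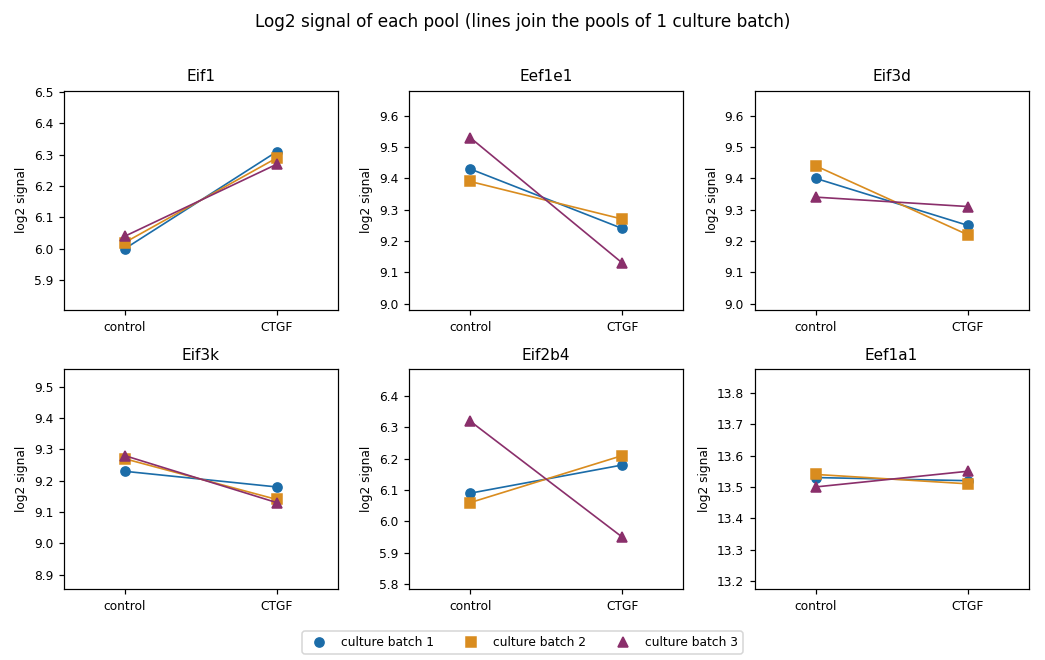
Log2 signal (vertical axis, each panel spanning the same range of 0.7 at its own level) of the control and CTGF pool of each culture batch (joined points) for 6 genes. The CTGF pools lie above the control pools for Eif1 and below them for Eef1e1, Eif3d and Eif3k, the lines of Eif2b4 cross, and those of Eef1a1 are nearly flat.

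Of the elongation factors proper, none had an interval that left out 0. Eef1a1, which delivers aminoacyl-tRNA to the ribosome, had control signals of 13.53, 13.54 and 13.50 and CTGF signals of 13.52, 13.51 and 13.55 on the log2 scale. The difference was 0.0033, with an interval from -0.15 to 0.16. A second probe set of Eef1a1 held identical values on all 6 arrays, so it is not a further measurement. Eef2, the translocase, had control signals of 11.51, 11.51 and 11.50 and CTGF signals of 11.49, 11.49 and 11.51, and its difference of -0.0100 had an interval from -0.16 to 0.14. Eef2k, the kinase that inhibits eEF2, had a difference of -0.020 and Eef1a2, the form of muscle and neurons, one of 0.0100. Of the guanine exchange subunits of eEF1, Eef1b2 had differences of 0.08, -0.17 and -0.19, Eef1d of 0.10, -0.13 and -0.05, and the scaffold subunit Eef1g of -0.06, 0.02 and 0.03. Each of these subunits had both signs among its pairs. The methyltransferase gene Eef2kmt, whose product modifies eEF2, was lower in all 3 pairs, at -0.25, -0.03 and -0.09 (mean -0.12, standard error 0.072).

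In all 3 pairs, 6 of the 54 genes (11.1%) were higher with CTGF, as were 9.41% of all probe sets, and 5 (9.26%) were lower, as were 10.9%. The shares of the factors were therefore close to those of the whole array. The 6 were Eif5, Eif4e3, Eif4g2, Eif4g3, Eif4ebp2 and Eif4enif1, and the 5 were Eef1e1, Eef2kmt, Eif3d, Eif3h and Eif3k. Of the former, 5 were grouped with eIF4F and its helpers or with the genes that hold back or carry eIF4E. Among these 5, Eif4e3 had signals that did not exceed those of the silent tissue genes, so no direction is read from it. Of the latter, 3 are eIF3 subunits, but Eif3h had both signs among its pairs by its other probe set. The counts by role carry no test.

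The cap machinery was measured by 9 genes of eIF4F and its helpers. Of these, 3 were higher in every pair and 0 lower, beside 9.41% and 10.9% of all probe sets. Eif4e, the cap-binding protein, had control signals of 10.93, 10.99 and 11.01 and CTGF signals of 11.02, 10.95 and 10.93, and Eif4a1, the helicase, 11.34, 11.47 and 11.51 against 11.54, 11.41 and 11.36. Neither had a common direction, and their mean differences were -0.010 and -0.0033. Eif4g2, a relative of eIF4G that lacks its binding site for eIF4E (DAP5), was higher by 0.07, 0.07 and 0.03, and the scaffold Eif4g3 by 0.01, 0.06 and 0.08. Their means of 0.057 and 0.050 were below their limma standard errors of 0.063, which borrow spread from other probe sets. The SDs of their own 3 differences were smaller, at 0.023 and 0.036. Eif4e3 was higher by 0.14, 0.12 and 0.05 but its signals did not exceed those of the silent tissue genes, so no direction is read from it. Eif4e2, a cap-binding protein that represses translation (4EHP), had differences of -0.16, 0.01 and -0.25 with a mean of -0.13 (standard error 0.076). Eif4h and Eif4b, which assist the helicase, had mean differences of -0.083 and -0.030.

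The genes that hold back or carry eIF4E had means above 0 in 3 of 3 cases, beside 12905 of all 27342 probe sets. Eif4enif1 encodes the eIF4E transporter (4E-T), which keeps mRNAs in storage in oocytes. Its control pools had log2 signals of 9.13, 9.13 and 9.06 and its CTGF pools 9.19, 9.19 and 9.26. It was higher in all 3 pairs, and the mean difference was 0.11 (standard error 0.068, limma unadjusted p = 0.164, adjusted p = 0.994). Eif4ebp2 was higher by 0.05, 0.01 and 0.12, and Eif4ebp1 had differences of 0.08, 0.04 and -0.01. Both encode 4E-BPs, which mTOR inactivates. Of 12 measured genes of mTOR signalling to translation, 1 was higher in all 3 pairs (Mknk2, a kinase of eIF4E, by 0.12, 0.08 and 0.10), beside 9.41% of all probe sets, and 2 were lower, beside 10.9%. The lower ones were Mknk1, the other kinase of eIF4E, at -0.01, -0.01 and -0.11, and the ribosomal protein gene Rps6 at -0.01, -0.04 and -0.02. The median of the 12 was -0.0033. Of 7 measured genes of translational control in germ cells, 1 had an unadjusted p under 0.05 in limma, beside 3.35% of all probe sets. This was Nanos3, an RNA-binding protein of germ cells, with a difference of 0.19 (standard error 0.064, limma unadjusted p = 0.0252, adjusted p = 0.994), and its signals too did not exceed those of the silent tissue genes. Dazl and Ddx4, of the same list, had differences of 0.027 and 0.0033.

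eIF3, the largest initiation factor, was represented by 10 subunits with a median of -0.013. Of these, 3 were lower in every pair and 0 higher, beside 10.9% and 9.41% of all probe sets. Eif3d, a subunit that can itself bind some mRNA caps, had control signals of 9.40, 9.44 and 9.34 and CTGF signals of 9.25, 9.22 and 9.31. It was lower in all 3 pairs, and its mean difference was -0.13 (standard error 0.070, limma unadjusted p = 0.103, adjusted p = 0.994). Eif3k, with control signals of 9.23, 9.27 and 9.28 and CTGF signals of 9.18, 9.14 and 9.13, had a mean of -0.11 (standard error 0.065). Eif3h, by the brighter of its probe sets, had differences of -0.12, -0.10 and -0.01, and by the other -0.28, -0.10 and 0.24. The core subunits Eif3a, Eif3b and Eif3c had means of 0.043, -0.023 and -0.023, each with both signs among its pairs.

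In eIF2 and eIF2B, the exchange factor that reloads eIF2 with GTP, no gene had 1 direction in all 3 culture batches. The same held for 43 of the 54 genes and 21791 of all 27342 probe sets. With 1 pair of pools per batch, a response that differs between batches and variation between pools cannot be told apart. The 5 eIF2B genes had medians of 0.09, 0.08 and -0.26 in batches 1, 2 and 3. In batch 1 none of the 5 was below 0 (0.00 to 0.12), and in batch 3 all 5 were (-0.37 to -0.06). Of all 27342 probe sets, 13141 were above 0 and 13391 below it in batch 1, and 12953 were below it in batch 3. Eif2b4 had control signals of 6.09, 6.06 and 6.32 and CTGF signals of 6.18, 6.21 and 5.95. Its differences were 0.09, 0.15 and -0.37, and the standard error of its mean of -0.043 was 0.11, the largest of the 54 genes. Each of the other eIF2B genes also had both a positive and a negative pair beyond 0.07. Without batch 3 the means of Eif2b2, Eif2b4 and Eif2b5 turned from -0.077, -0.043 and -0.013 to 0.040, 0.12 and 0.11, and without batch 2 those of Eif2b1 and Eif2b3 turned from -0.033 and -0.093 to 0.0100 and 0.0100. The 3 subunit genes of eIF2 and Eif2a, a separate initiator tRNA-binding factor, were all above 0 in batch 1 and all below it in batch 3, and the α subunit Eif2s1, the target of the eIF2 kinases, had differences of 0.17, 0.01 and -0.25.

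All 54 genes together had a median of 0.060, 0.0050 and -0.035 in the 3 batches, with 34, 27 and 18 of them above 0 and 19, 24 and 33 below. Over all probe sets the medians were 0.00, -0.01 and 0.00. The integrated stress response genes had 0.11, 0.02 and -0.11, and the stromal markers 0.15, 0.05 and -0.43, while the germ cell markers had 0.08, -0.06 and 0.21. Kit, the receptor by which oocytes receive KIT ligand, was higher in all 3 pairs, at 0.12, 0.15 and 0.31 (limma unadjusted p = 0.0326, adjusted p = 0.994). The other 5 germ cell markers had both signs among their pairs. Of all probe sets, 9.41% were higher in all 3 pairs and 3.35% had an unadjusted p under 0.05 in limma. In batch 3 the 5 stromal markers ranged from -1.03 for Pdgfra to -0.18. The part of these shifts of cell markers in the differences of the factors was not tested.

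**Figure D4:**
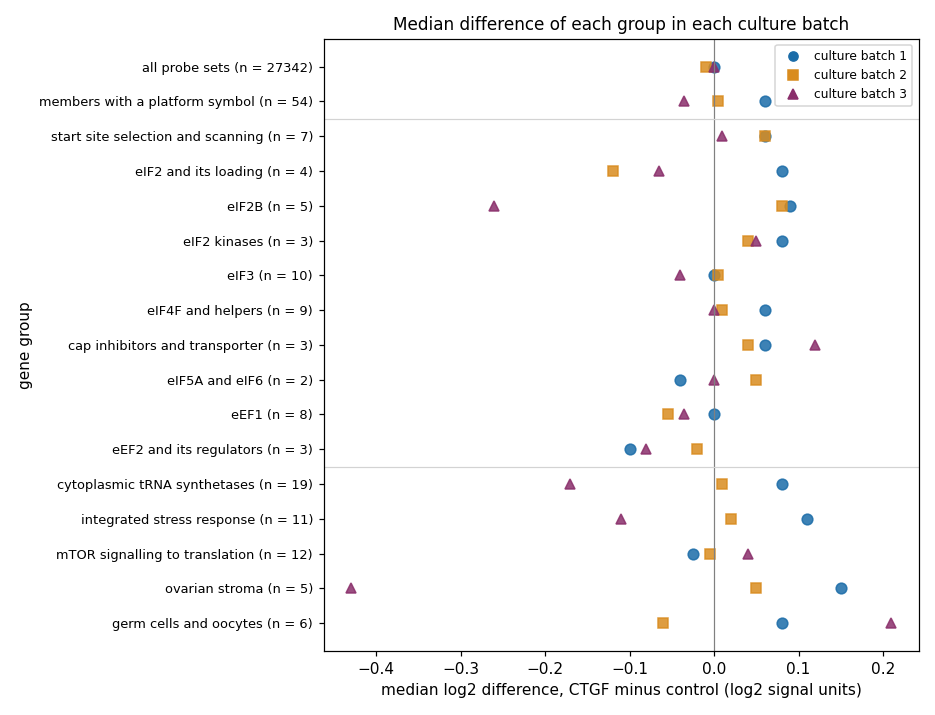
Median log2 difference, CTGF minus control (horizontal axis, log2 signal units), of each group of genes (vertical axis, number of genes in parentheses) drawn as a circle for batch 1, a square for batch 2 and a triangle for batch 3. eIF2B, the tRNA synthetases and the stromal markers have their lowest median in batch 3, at -0.26, -0.17 and -0.43, while all probe sets stay between -0.01 and 0.00.

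The eIF2 kinases, which stop initiation under stress, had means above 0 in 3 of 3 genes with both signs among the pairs of each. Of all 27342 probe sets, 12905 had a mean above 0. Eif2ak1, the haem-regulated kinase, had a mean of 0.040, Eif2ak3 (PERK), which answers to stress of the endoplasmic reticulum, one of 0.067 from 0.08, 0.22 and -0.10, and Eif2ak4 (GCN2), which senses uncharged tRNA, one of 0.017. Without batch 2 the mean of Eif2ak3 was -0.010, and without batch 1 that of Eif2ak4 was -0.020. Of 11 measured genes of the integrated stress response, 0 had an unadjusted p under 0.05 in limma, beside 3.35% of all probe sets. In all 3 pairs 1 was higher and 1 lower, beside 9.41% and 10.9% of all probe sets. They were Ppp1r15b, a subunit of the eIF2 phosphatase, at 0.08, 0.09 and 0.03, and the transcription factor Atf5 at -0.02, -0.08 and -0.10. Eif5a, the only protein group known to carry hypusine and needed at difficult peptide bonds, had control signals of 11.48, 11.49 and 11.52 and CTGF signals of 11.56, 11.55 and 11.52, with a mean difference of 0.047 (standard error 0.064). The hypusine enzymes Dhps and Dohh had differences of -0.083 and 0.040. Eif6, which keeps the ribosomal subunits apart, had a mean of -0.040. Among genes downstream in the pathway, the 7 of termination and recycling had a median of 0.033, the 3 of poly(A) binding one of 0.017 and the 6 mitochondrial translation factors one of -0.042. Of the last, Gfm2, a mitochondrial elongation factor relative that works in ribosome recycling, was lower by 0.16, 0.12 and 0.08 in the 3 batches. The lowest adjusted p of these lists in limma was 0.994.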

How the data were processed

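Arrays (Affymetrix Rat Gene 1.0 ST) were measured in 6 samples, 3 control and 3 CTGF pools, grouped by their labels. The authors summarized each probe set to a deposited log2 signal with RMA in Partek, with an adjustment for GC content, and 0 value columns lacked a sample. Genes come from the platform annotation, and all 54 annotated genes matched a RefSeq symbol of GRCr8 (53 by Entrez number).

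Differences were tested with limma 3.58.1 in R 4.3.3 (lmFit, eBayes) over all 27342 probe sets with the culture batch as a block, as in the methods of the study, and Benjamini-Hochberg adjustment. Pairs were formed by the replicate number in the labels, which was taken as the culture batch. Paired arrays deviated from their group means in opposite directions (r = -0.999, -0.999 and -0.999), since batch means had been equalized before deposit. The test has 2 residual degrees of freedom and 4.22 prior ones. No filter was used. An exact test by exchange of the 3 pairs cannot go below p = 0.25, so none is given. Limma p-values, standard errors and intervals combine a gene's own spread between paired differences with a spread estimated over all probe sets. The latter has the larger weight here. For Eef2 the SD of the 3 differences was 0.017 and the limma standard error 0.062. All standard errors given are those of limma. The number of arrays limits the precision of these values. The procedure was tested on simulated data.

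Members, roles and gene lists were chosen with earlier results of these data known. The genes to name were the Eif1 probe set, members with an unadjusted p under 0.05, the 3 smallest p of each role, core factors and genes with discordant probe sets. This named 33 genes. The other members, such as Eif2b4, Eif2b5, Eif4g2 and Eif4g3, were named after their values were seen. So were the list genes Mknk1, Rps6, Dazl and Ddx4 and the markers Kit and Pdgfra. Alternatives were no batch term, quantile normalization, centred medians, a signal filter, trend and robust options, the 2-way test of the methods, each replicate left out, the mean of all probe sets of a gene, and current symbols. The count of intervals within 1.2-fold was added after seeing the data.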

Additional observations from a re-analysis of the deposited data

How the results depend on the processing

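No gene of the 54 passed an adjusted p of 0.05 in limma or the 2-way test under any alternative run. At an unadjusted p under 0.05 the count of 1 (Eef1e1) was 9 with no replicate block, a fit with 4 residual degrees of freedom although the batch means had been equalized, 0 with the 2-way test of the methods, and 0 to 1 with a replicate left out, 0 without replicate 1 and 0 without replicate 3. The block leaves the differences themselves as they are. At the criteria of the study the count of 0 was 0 to 1 with a replicate left out. The median difference of -0.012 was between -0.035 and 0.010 with a replicate left out and 0.0017 with array medians centred. Genes higher in every pair (6) numbered 10 to 17 and genes lower in every pair (5) numbered 8 to 16 with a replicate left out, where only 2 pairs have to match. The 41 intervals within 1.2-fold became 25 with the 2-way test of the methods and 15 to 23 with a replicate left out, where fewer samples widen them. The other alternatives kept these counts within 1.5 times. Over 54 genes and 593 combinations of gene and setting, the sign of the mean turned in 42, in 31 genes, all with a mean of 0.093 or less in size. Of these, 3 turned with quantile normalization and 6 with array medians centred, among them Eef2, Eif4e and Eif4a1. Eif4e3 has no value under the signal filter.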
